A study of Mus musculus with 2 samples.

Results

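The zinc finger protein (Zfp) genes of mouse embryonic stem cells (ESCs) were analyzed in RNA-seq profiles of E14 cells and of E14-Sox2 TA/WT cells. The members were chosen by symbol (Zfp followed by a number) and by mean TPM, which had to be 5 or more over both libraries. TPM is a transcript level scaled for gene length and library size. Of 344 Zfp-numbered genes among the 24532 genes of the table, 230 met the rule, 114 fell under it and 7 of those had no read in either library. The rule used the level of a gene and not the difference between the genotypes, but a gene near the threshold could enter through the library in which it was high.

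E14 is an established mouse ESC line with wild-type Sox2. E14-Sox2 TA/WT cells, called mutant cells from here on, were derived from that line by selection of clones, and in them CRISPR/Cas9 editing changed threonine 258 of Sox2 to alanine (T258A) in one allele, while the other allele stayed wild type. Threonine 258 can carry O-GlcNAc, a sugar attached to serine and threonine, and alanine cannot, so the comparison addresses which transcripts differ when part of the Sox2 pool lacks this site. Per the study's methods, E14 was cultured with serum and leukemia inhibitory factor, whereas the edited cells were selected and kept with added Mek and Gsk3 inhibitors, which were withdrawn before use. Each genotype was measured in 1 library, so genotype, clonal selection and culture history cannot be told apart, and no difference below has a replicate check or a p-value.

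The E14 library held 60263536 reads and the mutant library 44609228. Sox2 had 373 TPM in E14 and 274 TPM in mutant cells (log2 ratio -0.44, 95% counting interval -0.47 to -0.41), and the edit itself does not show in a gene table. All 6 ESC markers examined were present in both libraries, Pou5f1 at 1725 and 1759 TPM, and Nanog was lower in mutant cells (527 against 251 TPM, -1.07). With Sox2, Dppa5a (-0.63) and Tdgf1 (-0.34), 4 of the 6 were lower on TPM, and the median of the 6 was -0.39. On the FPKM scale all 6 were lower. The 6 feeder fibroblast markers summed to 2.997 TPM in E14 and 5.22 TPM in mutant cells, with Dcn, Lum and Postn at 0 reads in both, and their part in the results below was not tested. Every ratio below is TPM in mutant cells over TPM in E14 on the log2 scale. Intervals are exact 95% Clopper-Pearson intervals of the 2 read counts, shifted to the TPM ratio of the gene. They cover counting error only and say nothing of variation between cultures.

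Most Zfp proteins bind DNA through C2H2 zinc fingers, small folds held by paired cysteines and histidines, and a tandem array of fingers reads a longer stretch of DNA. Many of the mammalian genes also encode a KRAB domain at the start of the protein, which recruits the scaffold protein Trim28. Trim28 brings in the H3K9 methyltransferase Setdb1 and HP1 proteins, and in ESCs this system silences endogenous retroviruses and protects the methylation of imprinted loci. The genes lie largely in clusters that grew by local duplication, so neighbours often encode related proteins. The same naming series also holds factors with few fingers that work in transcription complexes, on RNA or on ribosomes.

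The 5 members of a locus on chromosome 8 and the genes Zfp160 and Zfp945 of a locus on chromosome 17, which have the highest and the lowest ratio of all members, stand out in the results below, and the sequence upstream of their starts is shown for that reason. The chromosome 8 stretches are chr8:69625558-69625798 (Zfp868), chr8:69717069-69717152 (Zfp869), chr8:69749971-69750212 (Zfp963) and chr8:69774912-69775161 (Zfp866), all on the minus strand. Those of chromosome 17 are chr17:21008691-21008902 on the plus strand (Zfp160) and chr17:22867310-22867384 on the minus strand (Zfp945). The sequences are RefSeq promoter windows of GRCm38.p6, written 5′ to 3′ and shortened to the bases that no annotated exon of the gene covers. Capitals mark the CCAAT box, searched as CCAAT and ATTGG.
Zfp868: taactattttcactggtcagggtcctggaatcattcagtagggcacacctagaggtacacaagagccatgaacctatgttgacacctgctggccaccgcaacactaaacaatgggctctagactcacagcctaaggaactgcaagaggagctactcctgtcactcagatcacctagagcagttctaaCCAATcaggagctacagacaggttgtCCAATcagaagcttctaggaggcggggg
Zfp869: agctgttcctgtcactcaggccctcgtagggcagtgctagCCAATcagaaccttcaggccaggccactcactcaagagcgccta
Zfp963: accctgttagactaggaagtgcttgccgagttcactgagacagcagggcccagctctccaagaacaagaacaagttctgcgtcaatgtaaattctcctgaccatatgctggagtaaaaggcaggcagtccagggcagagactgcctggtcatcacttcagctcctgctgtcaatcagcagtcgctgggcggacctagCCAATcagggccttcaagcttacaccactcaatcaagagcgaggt
Zfp866: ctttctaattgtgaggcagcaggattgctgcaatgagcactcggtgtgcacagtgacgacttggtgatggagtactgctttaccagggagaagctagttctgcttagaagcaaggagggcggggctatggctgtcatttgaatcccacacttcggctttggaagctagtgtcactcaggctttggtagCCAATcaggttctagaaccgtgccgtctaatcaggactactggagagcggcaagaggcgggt
Zfp160: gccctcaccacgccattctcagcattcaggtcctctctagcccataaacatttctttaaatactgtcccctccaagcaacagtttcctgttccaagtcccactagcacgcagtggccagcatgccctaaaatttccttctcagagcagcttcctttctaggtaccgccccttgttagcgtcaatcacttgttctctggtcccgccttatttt
Zfp945: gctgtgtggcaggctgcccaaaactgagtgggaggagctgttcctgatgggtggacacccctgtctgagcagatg
The 4 chromosome 8 genes with a window each hold the box in the sequence shown, Zfp868 at 2 places, and in each of these CCAAT is followed by C and A. The full 250-base window of Zfp869 holds 4 boxes, of which 1 lies in the 84 bases shown. Zfp930, the remaining gene of that locus, had no entry in the promoter table. Neither chromosome 17 sequence holds the box. In full 250-base windows the box occurred in 58.7% of the KRAB members with a promoter entry. The genes shown were picked by their ratios, so these matches are no result about the loci.

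Zfp genes were shifted upward in mutant cells as a set, and their median lay above that of all genes on all 6 scales tried. Most of these scales move nearly all genes alike, so they could hardly change the distance between the medians. The scale corrected for GC content and length could, and on it the distance was smaller, with medians of 0.18 against 0.07. In bulk RNA, more transcript per cell and more cells that express a gene cannot be told apart. Of the 230 members, 184 (80%) had a higher TPM in mutant cells, against 56.4% of the 10337 genes whose mean TPM reached 5. The median log2 ratio of the members was 0.33, a level 1.26 times that in E14, with the middle members between 0.06 and 0.56 (quartiles), and the median of all these genes was 0.07. The counting interval lay above 0 for 160 members, below 0 for 30 and across 0 for 40. More than 2-fold differences were few: 17 members (7.39%) were more than 2-fold higher, where 4.2% of all genes were, and 1 (0.435%) was more than 2-fold lower, where 4.43% were. Together the members took 0.585% of the TPM in E14 and 0.674% in mutant cells.

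**Figure D1:**
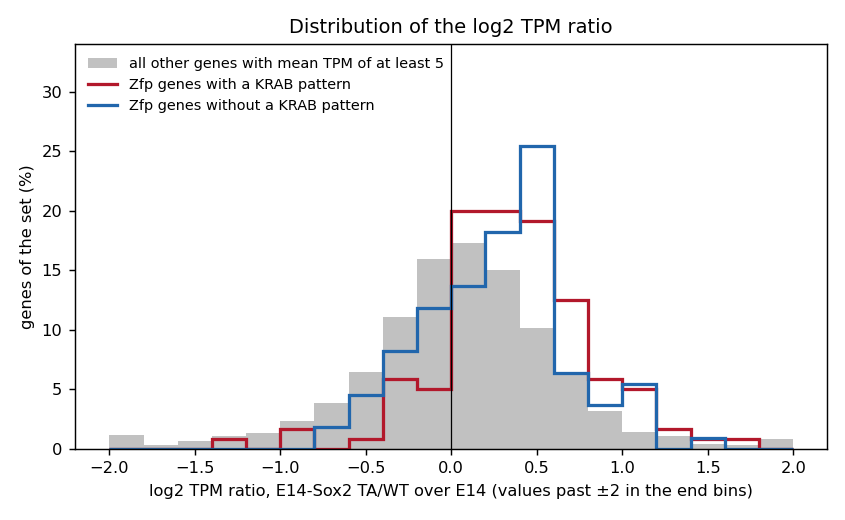
Percentage of genes in each bin of log2 TPM ratio (mutant over E14) for the 120 Zfp genes with a KRAB pattern (red line), the 110 without (blue line) and all other genes whose mean TPM reached 5 (grey). Both lines lie to the right of the grey distribution, with medians of 0.35 and 0.30 against 0.07 for all genes.

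The size of the ratios depended on the scale. The ratio of FPKM values lay 0.14 below the TPM ratio and moved the median of all genes from 0.07 to -0.07. The median of the members moved by the same amount, from 0.33 to 0.19, so their distance from all genes did not change. On FPKM 68.3% of the members were higher against 44.2% of all genes. Over the whole table, long and GC-poor transcripts were higher in mutant cells. With the genes in 4 bins of equal size, the median of all genes went from 0.21 at the lowest GC content to -0.07 at the highest, and from -0.14 at the shortest transcripts to 0.33 at the longest. The members followed the same order, from 0.39 to 0.14 over the GC bins and from 0.14 to 0.52 over the length bins, above all genes in every bin. After a trend on GC content and length was removed, the median of the members was 0.18 against 0.07 for all genes, and 74.3% of the members against 55.6% of all genes were higher. The direction of single members was less firm than that of the set, since 186 of the 230 kept one sign on all 6 scales tried.

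**Figure D2:**
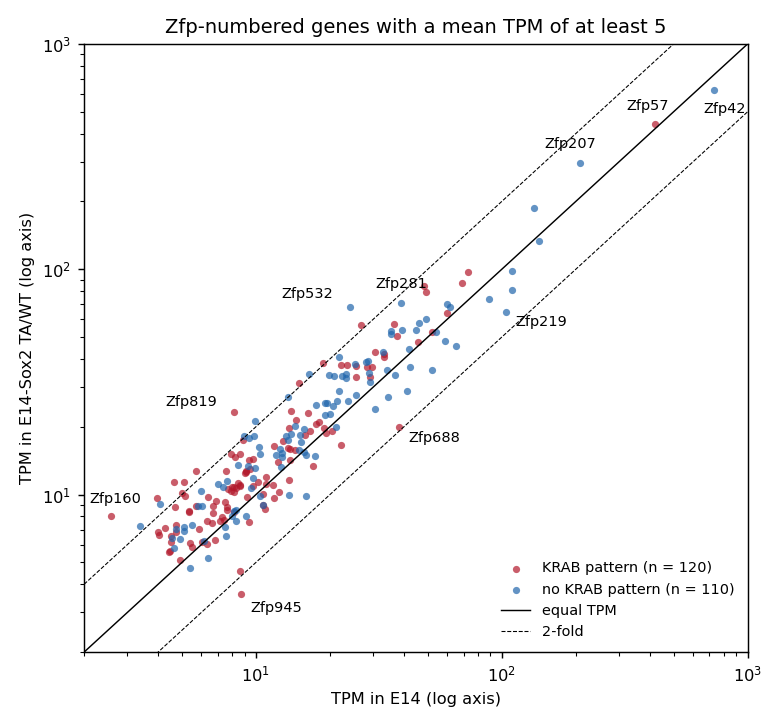
TPM of each of the 230 members in E14 (x axis) and in mutant cells (y axis), both on log axes, with the line of equal TPM and the 2-fold lines. Most points lie just above the line of equal TPM, and only Zfp945 lies below the lower 2-fold line.

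Of the 6 most abundant Zfp transcripts, Zfp207 and Zfp106 were higher in mutant cells by more than the members' median, and the other 4 lay closer to equal levels. Zfp42, known as Rex1, a marker of undifferentiated ESCs, had 733 TPM in E14 and 627 TPM in mutant cells (-0.23, -0.25 to -0.20). Zfp57, the KRAB protein that maintains methylation at imprinted loci, had 422 and 440 TPM (0.06), and its sign changed with TMM scaling, with centring on the median of all genes and with FPKM. These levels stand far above the rest of the family, whose median mean TPM was 13.6 and of which 81 members had a mean under 10. Zfp207, a spindle and splicing factor, followed with 208 and 297 TPM (0.51, 0.48 to 0.55). Zfp106, an RNA-binding protein of muscle and nerve, had 135 and 187 TPM (0.47), of which 0.04 was left after removal of the GC and length trend. Zfp330 (142 and 134 TPM, -0.08) and Zfp740 (110 and 98.0 TPM, -0.16) completed the 6 members with a mean of 100 TPM or more, and an exon of Zfp740 overlaps Csad by 139 bases.

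The 17 members more than 2-fold higher included 10 with a KRAB pattern in their coding sequence and 7 without. Zfp160 (gene ID 224585, chromosome 17, 21008941 to 21028857), a KRAB gene, differed most, with 2.57 TPM from 308 reads in E14 and 8.04 TPM from 644 reads in mutant cells (1.64, 1.45 to 1.84). Zfp819 (74400, chromosome 7, 43607135 to 43618279), a KRAB protein that restrains endogenous retroelements in ESCs, had 8.11 and 23.3 TPM (1.52, 1.38 to 1.67). Zfp532 (328977, chromosome 18, 65580230 to 65689443), which forms a chromatin complex with Zfp592 and Zfp687, had 24.1 and 67.8 TPM (1.49, 1.44 to 1.55). Zfp532 rests on the most reads of the 17, 4174 and 7861, and has the narrowest interval. Its partners Zfp592 (9.58 and 10.7 TPM, 0.16) and Zfp687 (21.4 and 26.1 TPM, 0.29) differed far less.

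Zfp459 (4.63 and 11.4 TPM, 1.30), Zfp764 (3.96 and 9.67 TPM, 1.29) and Zfp628 (4.07 and 9.12 TPM, 1.16) followed. These 3, with Zfp160, Zfp819 and Zfp532, were the 6 of the 17 that passed 2-fold on each of the 5 other scales. As most of these scales move nearly all genes alike, this largely restates how far the TPM ratio lay above 2-fold. Zfp345 (5.72 and 12.7 TPM, 1.15), Zfp26 (5.11 and 11.3 TPM, 1.15), Zfp827 (3.37 and 7.27 TPM, 1.11) and Zfp423 (9.92 and 21.2 TPM, 1.10) came next. Zfp827 recruits the NuRD remodelling complex to telomeres, and Zfp423 is a partner of Ebf factors in fat and cerebellar development. Zfp936 (26.9 and 56.7 TPM, 1.08), Zfp36 (16.4 and 34.5 TPM, 1.07), Zfp869 (14.97 and 31.2 TPM, 1.06) and Zfp266 (18.8 and 38.4 TPM, 1.03) were higher at moderate levels. Zfp408 (8.93 and 18.2 TPM, 1.03), Zfp386 (4.99 and 10.1 TPM, 1.02) and Zfp292 (13.6 and 27.2 TPM, 1.003) lay at the threshold.

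All 17 were higher on every scale. Their choice by a TPM ratio above 2-fold fixed this outcome on the scales that move nearly all genes alike, though not after trend removal. The counting interval lay wholly above 2-fold for only 8. Removal of the GC and length trend took Zfp26 to 0.58, Zfp266 to 0.68 and Zfp292 to 0.43, whereas Zfp628 (1.33), Zfp36 (1.19) and Zfp408 (1.18) came out higher than on TPM. Zfp160, Zfp764, Zfp628 and Zfp827 had a TPM under 10 in both libraries, the filter of the study's methods. Zfp764 shares 13.2% of its 75-base stretches with the transcript of another gene, 9130019O22Rik, and Zfp345 shares 13.3% with Gm14139, so reads of these may be split and both values are uncertain.

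Zfp945 (240041, chromosome 17, 22846697 to 22867309) was the 1 member more than 2-fold lower. It had 8.69 TPM from 1786 reads in E14 and 3.63 TPM from 504 reads in mutant cells (-1.26, -1.40 to -1.11), and the trend-corrected ratio was -1.66. Its coding sequence holds a KRAB pattern and 18 fingers, as does that of Zfp160, and both lie in the same locus. The next lowest were Zfp688 (38.2 and 19.9 TPM, -0.94) and Zfp689 (8.58 and 4.59 TPM, -0.90), neighbouring KRAB genes on chromosome 7. Both passed 2-fold on the FPKM scale, with ratios of -1.09 and -1.05, and were named after their values had been seen.

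**Figure D3:**
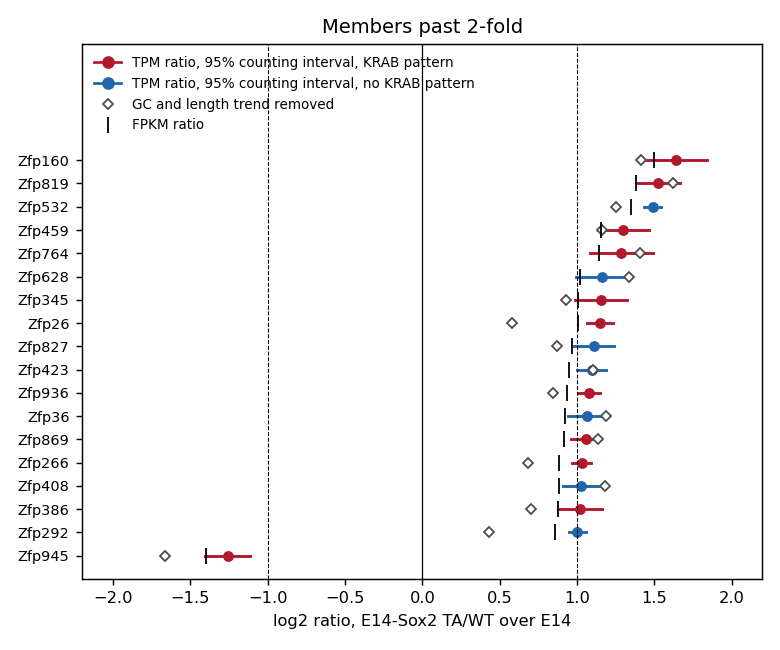
Log2 ratio (mutant over E14) of the 18 members past 2-fold. Filled points are TPM ratios with 95% counting intervals, diamonds the ratio after removal of the GC and length trend, and ticks the FPKM ratio; the 17 higher members stay above 0 on all of these, and Zfp945 alone lies below -1.

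Members with roles in pluripotency and imprinting did not pass 2-fold. All 12 genes of this list were members, 9 were higher, and their median was 0.36, although Zfp57 and Zfp143 turned lower on FPKM and when centred. Zfp462, a finger protein of neural and heterochromatin regulation, had 21.7 and 40.7 TPM (0.91, 0.86 to 0.95). Zfp281, a partner of Nanog that acts in the passage from naive to primed pluripotency, had 39.0 and 70.9 TPM (0.86, 0.82 to 0.91). Zfp217 (25.4 and 38.0 TPM, 0.58) and Zfp296, a partner of Klf4 (39.3 and 53.8 TPM, 0.45), were higher to a lesser degree. Zfp445, which shares imprint protection with Zfp57, had 37.5 and 50.7 TPM (0.43), and Zfp553 had 49.4 and 60.1 TPM (0.28). Zfp143, an activator at many promoters, had 34.04 and 35.8 TPM (0.07), with an interval across 0.

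Lower members of that list were Zfp219 (104 and 64.8 TPM, -0.69, -0.74 to -0.63), Zfp706 (110 and 80.9 TPM, -0.44), which restrains Klf4 expression in ESCs, and Zfp42 as above. The sums over the list were close, 1824 TPM in E14 and 1860 TPM in mutant cells, because Zfp42 and Zfp57 make up most of both.

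In a separate list of KRAB factors that silence retroelements and single loci, every member was higher on every scale. Zfp57 and Zfp445, the KRAB proteins of imprinted loci, stood in the list above, and the sign of Zfp57 changed between scales. Of the 6 listed, 5 were members and all 5 had intervals above 0, with a median of 0.75. Of all 120 KRAB members 85.8% were higher, with a median of 0.35, so 5 of 5 says little about this role. Beside Zfp819, these were Zfp568, the repressor of a placental Igf2 transcript (48.2 and 84.4 TPM, 0.81, 0.77 to 0.84), and Zfp809, which recognises the primer binding site of murine leukemia viruses (29.0 and 33.2 TPM, 0.19, 0.08 to 0.31). Zfp932, which binds an endogenous retrovirus class, had 13.9 and 23.4 TPM (0.75), and Zfp708, which binds a retroelement near imprinted genes, had 4.52 and 6.15 TPM (0.44). Zfp932 shares 26.4% and Zfp708 94.3% of its 75-base stretches with other transcripts, so their values are uncertain. Zfp92 was not a member and went the other way, with 22 reads in E14 and 4 in mutant cells (-1.85, -3.84 to -0.29).

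A list of 18 KRAB cofactors and other heterochromatin and DNA methylation genes held no members. Of these, 15 (83.3%) were higher with a median of 0.51, against 56.4% of all genes. Their direction by count held on FPKM (83.3%) and after trend removal (77.8%). Trim28 itself had 776 and 1071 TPM (0.46, 0.45 to 0.48). Setdb1 had 74.8 and 74.0 TPM (-0.02, -0.06 to 0.03), and its partner Atf7ip 34.5 and 46.6 TPM (0.44, and 0.0047 after trend removal). Of the HP1 genes, Cbx3 differed more (161 and 290 TPM, 0.85) than Cbx1 (132 and 152 TPM, 0.20) and Cbx5 (126 and 151 TPM, 0.26), and Cbx5 changed sign after trend removal (-0.28). In the HUSH complex, which spreads H3K9 methylation, Fam208a (20.1 and 36.7 TPM, 0.87), Pphln1 (28.9 and 52.3 TPM, 0.86) and the associated Morc2a (43.3 and 69.6 TPM, 0.68) were higher, and Mphosph8 was near equal (93.4 and 90.4 TPM, -0.05).

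Atrx (31.8 and 72.6 TPM, 1.19), Dnmt3b (67.5 and 150 TPM, 1.16) and Smarcad1 (50.7 and 103 TPM, 1.02) were the 3 genes of this list past 2-fold on TPM. Smarcad1 passed on TPM alone, with 0.94 when centred, 0.87 on FPKM and 0.72 after trend removal. Atrx fell to 0.56 after trend removal, and only Dnmt3b (1.23) was still past 2-fold. The study picked Dnmt3b as a candidate target partly on these libraries, so its direction is not independent. The histone chaperone Daxx, which works with Atrx, had 59.0 and 87.0 TPM (0.56). Among the DNA methylation genes, Dnmt1 (120 and 161 TPM, 0.43), its guide Uhrf1 (179 and 240 TPM, 0.42) and Dnmt3a (62.3 and 102 TPM, 0.70) were higher, and Dnmt3l was lower (200 and 153 TPM, -0.39).

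Of the members in chromatin and general transcription complexes, 13 of 14 were higher, against 80% of all members. Their median of 0.33 equalled that of all members, so the lean was not particular to this list. After removal of the GC and length trend 71.4% remained higher, since Zfp451, Zfp318 and Zfp592 changed sign, against 74.3% of all members. The medians were then 0.14 and 0.18. Besides Zfp532 and Zfp827, Zfp148 (8.45 and 13.6 TPM, 0.68), Zfp609, which meets cohesin loading and Integrator (23.3 and 34.4 TPM, 0.56), and Zfp644, a partner of the G9a methyltransferase (17.5 and 25.1 TPM, 0.52), had the next highest TPM ratios. Trend removal left 0.11 for Zfp148, 0.34 for Zfp609 and 0.11 for Zfp644, below Zfp384 (0.48) and Zfp335 (0.45). Zfp384 (28.2 and 38.6 TPM, 0.46), Zfp335 (13.5 and 17.5 TPM, 0.37), Zfp318 (9.77 and 11.9 TPM, 0.28), Zfp131 (28.7 and 34.6 TPM, 0.27) and Zfp410, the activator of the NuRD gene Chd4 (19.0 and 22.5 TPM, 0.24), were between 0.2 and 0.5. Zfp451, a SUMO ligase, was close to equal (42.0 and 44.5 TPM, 0.08). Zfp516, which acts in brown fat, was the lower exception (15.9 and 9.90 TPM, -0.69, -0.77 to -0.60).

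Members that act on RNA and ribosomes showed no common direction, with 5 of 10 higher and a median of 0.10, which was -0.04 on FPKM. Zfp36, or tristetraprolin, promotes decay of mRNAs with AU-rich elements and was the 1 past 2-fold. Besides Zfp207 and Zfp106, Zfp638 (35.5 and 53.2 TPM, 0.58, and 0.013 after trend removal) and the splicing factor Zfp830 (15.2 and 18.5 TPM, 0.28) were also higher. The other 5 had a lower TPM. Zfp622, of 60S subunit maturation, had 65.3 and 45.8 TPM (-0.51, -0.58 to -0.45), Zfp593 had 34.4 and 27.0 TPM (-0.35), and Zfp598, the ubiquitin ligase of collided ribosomes, had 88.8 and 73.6 TPM (-0.27). The RNA-binding Zfp346 had 30.6 and 24.1 TPM (-0.34) and Zfp326 had 21.2 and 19.99 TPM (-0.08, -0.19 to 0.03).

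Of 10 developmental regulators listed, 3 were members: Zfp423 as above, Zfp365 (29.1 and 31.7 TPM, 0.12, and -0.02 on FPKM) and the epidermal factor Zfp750 (6.41 and 5.26 TPM, -0.29). Another 6 stayed under the threshold, and Zfp469 was not analysed here.

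A KRAB pattern alone separated the members little. Of the 120 members with it, 103 (85.8%) were higher and the median was 0.35; of the 110 without, 81 (73.6%) were higher and the median was 0.30. After trend removal the medians were 0.18 and 0.18. KRAB members had lower levels, with a median mean TPM of 10.8 against 17.5, and lower GC content in their transcripts, 42.0% against 48.6%. Members with at least 2 other Zfp-numbered genes within 500 kb (122 genes, median 0.34) and those without (108 genes, 0.32) had close medians as well.

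The ratio differed more between finger classes than between members with and without a KRAB pattern. The classes were set after values had been seen. Among 47 members with 0 to 5 finger patterns, 57.4% were higher with a median of 0.15, near the share of all genes. The 73 members with 6 to 10 fingers had 72.6% higher (median 0.23), the 70 with 11 to 15 had 94.3% (0.40), and the 40 with more than 15 had 95% (0.45). The 4 classes also differed in level, with a median mean TPM of 28.0, 13.3, 10.5 and 11.1 in this order. The part of level in their ratios was not tested. The TPM ratio differed by finger number with and without KRAB. With 11 or more fingers, 74 of 78 KRAB members and 30 of 32 others were higher, and with 10 or fewer, 29 of 42 and 51 of 78. Trend removal narrowed the range to 59.6%, 72.6%, 81.4% and 82.5% higher over the 4 classes, with medians of 0.04, 0.18, 0.22 and 0.26. After it, the medians at 10 or fewer and at 11 or more fingers were 0.17 and 0.19 for KRAB members (69.0% and 79.5% higher), and 0.10 and 0.37 for the others (66.7% and 87.5% higher). Across the 230 members, which all come from the same pair of libraries, Spearman's rho with the ratio was 0.31 for fingers, -0.21 for GC content and 0.21 for transcript length.

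**Figure D4:**
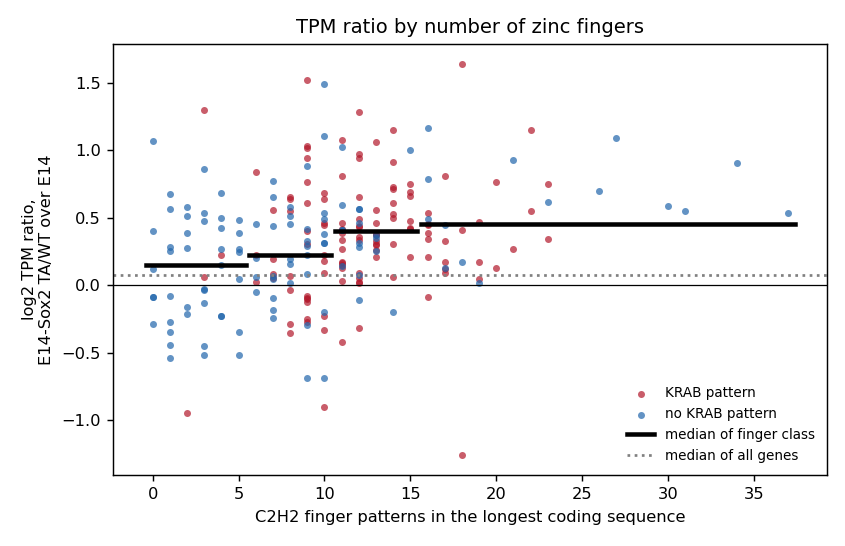
Log2 TPM ratio (mutant over E14) of each member against its number of C2H2 finger patterns, with members that hold a KRAB pattern in red and the others in blue. Black bars are the medians of the 4 finger classes, which rise from 0.15 to 0.45, and the dotted line is the median of all genes, 0.07.

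Gene clusters differed among themselves. On chromosome 8, the 5 members between 69209018 and 69774911 were all higher on every scale, with a median of 0.76. Zfp930 (30.5 and 42.8 TPM, 0.49), Zfp868 (22.1 and 37.6 TPM, 0.76), Zfp869 as above, Zfp963 (4.50 and 6.58 TPM, 0.55) and Zfp866 (8.90 and 17.5 TPM, 0.97) make up this KRAB locus, and all but Zfp869 were named after their values had been seen. Zfp963 shares 37.7% of its 75-base stretches with another transcript and is uncertain. The 1 other expressed gene between the members had a ratio of 1.18, above all 5 of them. Of all 595 expressed genes of chromosome 8, the members included, 75.5% were higher, with a median of 0.27, and the part of the chromosome in the values of the locus was not tested.

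On chromosome 13, all 9 KRAB members between 67038594 and 67827000 were higher, with a median of 0.73 (0.38 after trend removal). They ran from Zfp493 (7.26 and 7.94 TPM, 0.13), whose sign changed with FPKM and after trend removal, to Zfp459. The 5 other expressed genes among them had a median of 0.14. Of all 364 expressed genes of chromosome 13, 66.5% were higher, with a median of 0.17. A chromosome 7 trio of Zfp936, Zfp715 (9.14 and 12.7 TPM, 0.47) and Zfp819 had the highest median, 1.08. Zfp26, Zfp426, Zfp266 and Zfp846 on chromosome 9 had a median of 0.62, or 0.22 after trend removal. On chromosome 15, where 38.4% of all 440 expressed genes were higher and the median was -0.15, all 6 members in both clusters were higher on TPM, with cluster medians of 0.15 and 0.35, and Zfp707 turned lower on FPKM and Zfp41 after trend removal (-0.25). The 3 members outside those clusters, Zfp622, Zfp706 and Zfp740, were lower.

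Other clusters held members of both directions side by side. The chromosome 17 cluster from Zfp160 to Zfp13 (21008941 to 23599755) held 12 KRAB members, 9 of them higher, and contained the highest and the lowest ratio of the 230 members, Zfp160 at 1.64 and Zfp945 at -1.26. Between these, Zfp760 had 8.61 and 15.1 TPM (0.81), and Zfp53 had 10.7 and 10.1 TPM (-0.09). On chromosome 7 between 127233061 and 127885996, Zfp764 (1.29) lay beside Zfp688 (-0.94) and Zfp689 (-0.90) in a cluster with 7 of 9 members higher. The largest set on that chromosome by members, 11 genes from Zfp84 to Zfp146, had 9 higher with a median of 0.41 and ran from Zfp383 (22.3 and 16.6 TPM, -0.42) to Zfp568 (0.81). The second chromosome 17 cluster, from Zfp871 to Zfp414, had 7 of 10 higher with a median of 0.17, which was -0.02 after trend removal. Zfp760, Zfp53, Zfp715, Zfp493, Zfp383, Zfp41 and Zfp707 were named after their values had been seen.

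**Figure D5:**
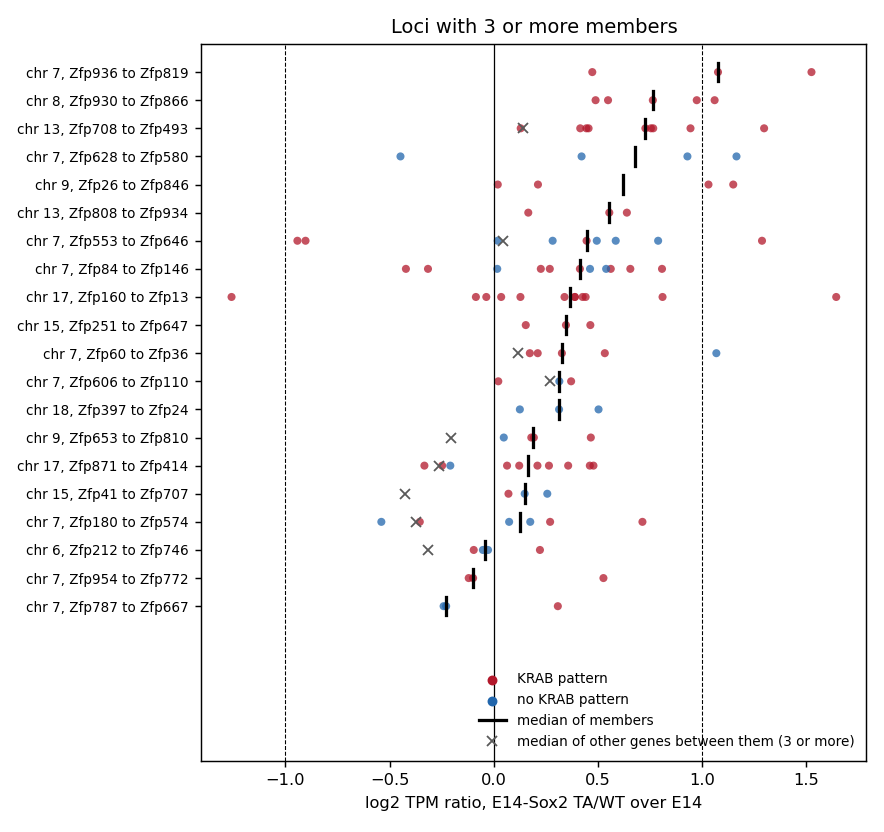
Log2 TPM ratio (mutant over E14) of the members in each of the 20 loci with 3 or more members, named by chromosome and by first and last member. Red points hold a KRAB pattern, blue points do not, black bars are medians of the members and crosses medians of other expressed genes between them; 17 of the 20 medians lie above 0, and the chromosome 17 locus that starts with Zfp160 spans the widest range.

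Short sequence motifs were counted in the 250 bases upstream of the start in RefSeq, which matched 190 of the 230 members. The CCAAT box (CCAAT or ATTGG) occurred in 50.5% of members, in 58.7% of those with a KRAB pattern and 40.7% of those without, against 38.0% of promoters of expressed genes and 34.5% of all 27025 promoters. It was present in 37.5% of the 16 matched promoters of members more than 2-fold higher. The core that SOX factors bind, searched as CATTGT and ACAATG, was in 8.42% of members, 5.598% of expressed genes and 10.99% of all promoters. The octamer of Oct4, searched as ATGCAAAT and ATTTGCAT, was in 3.68%, 1.27% and 1.61%. Promoters of members had a median GC content of 54.0%, against 60.4% for expressed genes. A match describes letters in the window and not binding.

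Other finger families were also shifted upward. Among 29 Zbtb-numbered genes, which pair fingers with a BTB domain, 24 (82.8%) were higher with a median of 0.35, and 1 was past 2-fold in each direction. Among 15 Zscan- and Zkscan-numbered genes, which carry a SCAN domain, 13 were higher with a median of 0.27. After trend removal 75.9% and 73.3% of these were higher, beside 74.3% of the Zfp members.

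The members closest to the threshold of 5 TPM were Zfp626 (4.45 and 5.58 TPM, mean 5.02), Zfp454 (4.93 and 5.13 TPM, mean 5.03) and Zfp54 (4.46 and 5.65 TPM, mean 5.05). Just under it were Zfp213 (3.79 and 6.10 TPM, mean 4.94), Zfp3 (6.16 and 3.71 TPM, mean 4.94) and Zfp775 (4.94 and 4.86 TPM, mean 4.90). Reads behind the members ran from 131 upward, with medians of 1330.5 in E14 and 1111.5 in mutant cells, and the median half-width of the counting interval was 0.12. For 26 members at least 10% of the 75-base stretches occur in a transcript of another gene, and for 22 an exon overlaps that of another gene. Among the 187 members with neither, 78.1% were higher and the median was 0.31.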

How the data were processed

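Polyadenylated RNA of 1 E14 library and 1 Sox2 T258A library was sequenced. The deposited read counts were left unscaled by the authors, and the TPM and FPKM values deposited by the authors are scaled for gene length and library size. The submitters' processing notes name bcl2fastq 2.20.0, Trimmomatic, HISAT2 2.1.0 and StringTie 2.1.3b, with no stated use of strand or of reads that map to several genes. The values are those of the mm10 build (GRCm38).

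Samples were grouped by their labels. Genes whose mean TPM reached 5 were compared by their TPM ratio, with no pseudocount and with the 2-fold threshold of the study's methods. Because each genotype had 1 library, no test was run. Exact Clopper-Pearson 95% intervals came from the read counts (scipy 1.17.1) and reflect counting error alone, because PCR copies are not separate molecules. Each was shifted to the TPM ratio of its gene, so it does not cover a mismatch between TPM and reads. The interval code was tested on simulated data. The members and gene lists were chosen with earlier results of these data known.

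Genes were placed by their RefSeq positions on GRCm38.p6. A KRAB pattern (at least 9 of 14 fixed positions in a window of 26 residues) and C2H2 patterns were read from translated GENCODE M21 coding sequences, where the plan had assumed a table of proteins, and all 230 members had one. Shared sequence was counted as 75-base stretches found in transcripts of other genes. The GC and length trend was removed by medians in 20 bins of each. Alternatives were TPM filters, pseudocounts, fold thresholds, TMM scaling (edgeR 4.0.16), FPKM, centring, size factors by median of ratios (DESeq2 1.42.0), and other definitions of KRAB and clusters. Genes named were Sox2, all members past 2-fold with at least 50 reads, the 6 most abundant members and 3 on each side of the threshold. Members of the lists and the list of KRAB cofactors and heterochromatin genes were also named, and any others are marked. Alternatives without members that share sequence and without chromosomes 8 and 15 were chosen after seeing the data.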

Additional observations from a re-analysis of the deposited data

How the results depend on the processing

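The median of the members stayed above 0 under every alternative tried, but the count past 2-fold moved. Of 17 members more than 2-fold higher and 1 lower, the FPKM ratio gave 8 and 3, centring on the median of all genes 11 and 2, removal of the GC and length trend 11 higher, and a pseudocount of 1 also 11 higher. Over all 10337 genes, FPKM gave 319 higher and 606 lower, centring 361 and 525, and trend removal 355 and 374. On FPKM the share of members more than 2-fold higher was thus close to that of all genes. Counts under the pseudocount, filters and other thresholds stand here without a share over all genes. A mean TPM of at least 1 gave 31 and 2, no filter 36 and 8, a mean of at least 10 gave 9 and 0, and a TPM that reached 10 in 1 library or more gave 0 lower. A 1.5-fold threshold gave 52 and 5, a 3-fold threshold 1 and 0, and intervals wholly past 2-fold 8 higher. The medians were 0.19 (all members), 0.21 (KRAB), 0.16 (no KRAB), 0.20 (clustered) and 0.18 (isolated) on FPKM, and 0.18, 0.18, 0.18, 0.21 and 0.16 after trend removal. Sox2 was -0.49 with TMM, -0.52 when centred, -0.59 on FPKM and -0.33 after trend removal. Filters and thresholds changed the genes counted by construction. Centring and FPKM lowered the ratio of every member by a fixed amount, and the cause of the other shifts was not tested. Without members that share sequence 15 were more than 2-fold higher, and without chromosomes 8 and 15 there were 14. No paired analysis was possible because each genotype has 1 library, and for the same reason no library could be left out. The fewest reads of a member in 1 library were 131.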

Other observations

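Zfp-numbered genes under the threshold were also compared, and those named here were chosen after their values had been seen. Of 83 Zfp-numbered genes with a mean TPM from 1 to under 5, 71 (85.5%) were higher in mutant cells, 14 more than 2-fold, and 1 was more than 2-fold lower, with a median log2 ratio of 0.47. No share of all genes at such low levels stands beside the counts of this paragraph, so they cannot be read as particular to Zfp genes. Zfp608, which the study had picked partly on these libraries, had 93 reads in E14 and 530 in mutant cells (0.482 and 4.11 TPM, 3.09, counting interval 2.77 to 3.42). Among the others, Zfp966 had 79 and 237 reads (1.77, 1.39 to 2.15), Zfp324 had 161 and 302 reads (1.49, 1.21 to 1.78), and Zfp882, a chromosome 8 KRAB gene, had 356 and 590 reads (1.31, 1.12 to 1.504). Zfp467 was the 1 past 2-fold lower on TPM (1.67 and 0.612 TPM, -1.45, -2.0003 to -0.91), with 79 and 47 reads. Its TPM fell by more than its reads did: Zfp939, with 118 and 46 reads, had a ratio of -0.80. The interval of Zfp467 was placed around its TPM ratio, so its reads do not bear out the 2-fold drop. Of the 24 genes with reads but a mean under 1 TPM, 10 were higher and 14 lower. Among these, Zfp521, a factor of neural and blood progenitors, had 19 and 132 reads (3.44, 2.74 to 4.22) at a mean of 0.552 TPM. Lower there were Zfp9 (139 and 27 reads, -1.81, -2.47 to -1.21), Zfp641 (44 and 10 reads, -1.55, -2.70 to -0.53) and Zfp781, which had 116 reads in E14 and 2 in mutant cells (-6.02, -9.08 to -4.13).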
